A study of Mus musculus with 8 samples.

Results

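The let-7 guide arms measured here are the 9 mouse microRNAs mmu-let-7a, mmu-let-7b, mmu-let-7c, mmu-let-7d, mmu-let-7e, mmu-let-7f, mmu-let-7g, mmu-let-7i and mmu-miR-98 (written below without the prefix for mouse), taken by their array names without a star, out of 567 mouse microRNAs on the array. The rule that picks them uses the name alone. All 9 were called detected by the scanner software on all 8 arrays and all 9 entered the tests. The arrays held total RNA from bone marrow derived dendritic cells of C57BL/6 mice, grown with GM-CSF at 40 ng/ml and harvested as non-adherent cells on day 9. Of these samples, 4 were left unstimulated overnight and 4 were given 10 µM of ODN1826, a class B oligonucleotide with CpG motifs, for the same time. The control is called medium alone in one label and PBS in another, and no control oligonucleotide is named, so the CpG motif and the presence of any oligonucleotide cannot be told apart. The labels call the 8 samples individual without naming separate mice or cultures. A p-value here therefore compares the groups with sample-to-sample spread that could be technical. Total RNA came from all harvested cells of a sample, so fewer cells of a type and less RNA per cell cannot be told apart.

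A microRNA guide arm is loaded into an Argonaute protein and pairs with messenger RNAs mainly through its seed, the stretch near the 5′ end, which lowers their stability and translation. let-7 microRNAs are best known for restraining growth and early developmental genes such as Hmga2, Ras family genes and Lin28, and LIN28 proteins in turn block let-7 maturation. In immune cells, transcripts for cytokines such as IL-6 and IL-10 have been studied as let-7 targets. CpG ODN1826 is a ligand of Toll-like receptor TLR9, whose signalling matures dendritic cells.

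The mature sequences from RefSeq (GRCm38.p6) are shown because they set both the shared targets and the chance that one probe also captures another member. Each member is 22 bases long, and capitals mark the seed, bases 2 to 8 from the 5′ end.
let-7a: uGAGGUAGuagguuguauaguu
let-7b: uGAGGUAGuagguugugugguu
let-7c: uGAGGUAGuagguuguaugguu
let-7d: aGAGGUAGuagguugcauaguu
let-7e: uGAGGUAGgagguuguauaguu
let-7f: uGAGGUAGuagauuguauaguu
let-7g: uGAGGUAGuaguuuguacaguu
let-7i: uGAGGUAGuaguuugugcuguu
miR-98: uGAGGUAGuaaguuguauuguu
All 9 share the seed GAGGUAG. Of 1679 mature mouse names in RefSeq, 11 carried it, which is 0.655%, and those not among the 9 were let-7k and miR-1961.

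The members differ only in the bases outside the seed, where capitals now mark the differences from let-7a.
let-7b: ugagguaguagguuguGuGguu
let-7c: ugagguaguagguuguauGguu
let-7d: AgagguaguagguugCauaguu
let-7e: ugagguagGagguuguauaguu
let-7f: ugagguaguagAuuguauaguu
let-7g: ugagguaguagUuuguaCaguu
let-7i: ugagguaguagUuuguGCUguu
miR-98: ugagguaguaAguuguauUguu
With let-7a's base first and positions counted from 1 at the 5′ end, let-7c (A19G), let-7e (U9G) and let-7f (G12A) each differ at 1 position. let-7b (A17G and A19G), let-7d (U1A and U16C), let-7g (G12U and U18C) and miR-98 (G11A and A19U) each differ at 2. let-7i is the member farthest from let-7a, with 4 differences (G12U, A17G, U18C and A19U).

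The array annotation places the members' probe targets on mm9, and RefSeq gene names on GRCm38.p6 give their neighbourhoods. The longer targets of let-7a (chr13:48633608-48633627), let-7f (chr13:48633258-48633278) and let-7d (chr13:48631447-48631465) lie close together on the minus strand, outside any other annotated gene. Those of let-7c (chr15:85537049-85537067) and let-7b (chr15:85537758-85537776) lie on the plus strand inside the non-coding gene Lncppara. let-7e (chr17:17967333-17967351, plus strand) is made beside miR-99b and miR-125a, all within the span of Spaca6. let-7g (chr9:106081178-106081198, plus strand) lies within Wdr82, miR-98 (chrX:148347772-148347793, plus strand) within Huwe1, and let-7i (chr10:122422754-122422774, minus strand) within no other annotated gene. Mature let-7a, let-7c and let-7f are also made from further genes (for let-7a Mirlet7a-2, beside miR-100, and for let-7f Mirlet7f-2, in Huwe1), and an array of mature microRNAs cannot tell these sources apart.

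Each member was read by 2 probes, whose annotated targets of 18 to 22 bases were taken to end at the 3′ end of the mature microRNA. Placed so, they begin between base 1 and base 5. Every probe therefore covers the part in which most members differ, but the U1A difference of let-7d lies outside both of its targets. All spots of the 18 probes were well above background, none was saturated, and 6 to 10 spots were averaged per probe and array. The median coefficient of variation among the spots of 1 probe on 1 array ranged from 2.33% to 6.86%. The deposited error of the total signal was 7.26% to 8.87% of each member's signal. The number of arrays, 4 per group, limits the precision. Because brightness depends on the probe, no member's level is ranked against another's.

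Before scaling, the CpG arrays were brighter as a whole. The 75th percentile of signal over the 177 microRNAs detected on all arrays was 101 to 144 intensity units in the untreated samples and 157 to 280.5 with CpG, a ratio of 1.74 (exact two-sided permutation test, p = 0.0286, the smallest that 4 against 4 allows). The mean of the 4 hur control features differed by a factor of 1.18, within its spread (exact permutation test, p = 0.114). Of the 4 taken singly, hur_1 did not overlap between groups (39913 to 43862 untreated, 44854 to 59043 with CpG, exact permutation test, p = 0.0286), and the others had exact permutation p-values of 0.0571 to 0.343. Myeloid microRNAs were detected on all 8 arrays for 3 of 3 (miR-223, miR-142-3p and miR-142-5p), with a summed unscaled intensity of 2282 to 2776 in untreated and 2623 to 4715 in CpG samples. After scaling, 1 of the 3, miR-223, fell with CpG (difference -0.60, limma adjusted p = 0.0284, no overlap), as let-7d did, and without scaling it was higher by 0.20 and did not pass. None of the 2 erythroid, 3 stromal and 2 endothelial markers was detected on any array. Of 3 lymphoid markers miR-150 was detected on none, while miR-181a and miR-181b were on all 8. Of 5 epithelial markers miR-200b was detected on all 8 and miR-200c and miR-141 each on 1 of 4 untreated and 4 of 4 CpG arrays. The part of cell make-up and of overall brightness in the let-7 results was not tested, and dendritic cells have no defining marker among these lists.

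Values below are log2 of the signal divided by that array's 75th percentile, so 0 is a microRNA as bright as that percentile. On this scale the fitted difference of let-7 members was below 0 for 9 of 9, against 64.6% of the 212 microRNAs tested, and without scaling it was above 0 for all 9, where 2.83% of tested microRNAs were below 0. The members' median scaled difference was -0.41, beside -0.19 over all tested microRNAs. At an adjusted p under 0.05 (limma, Benjamini-Hochberg over 212 microRNAs), 1 of 9 members, let-7d, fell, where 6.6% of tested microRNAs fell and 7.55% rose. Groups did not overlap for 5 of 9 members (let-7a, let-7b, let-7d, let-7f and let-7g), all lower with CpG, where 19.8% of tested microRNAs did so in that direction and 7.08% in the other. At an unadjusted p under 0.05, 6 of 9 were lower, where the share among all tested was 26.4%.

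**Figure D1:**
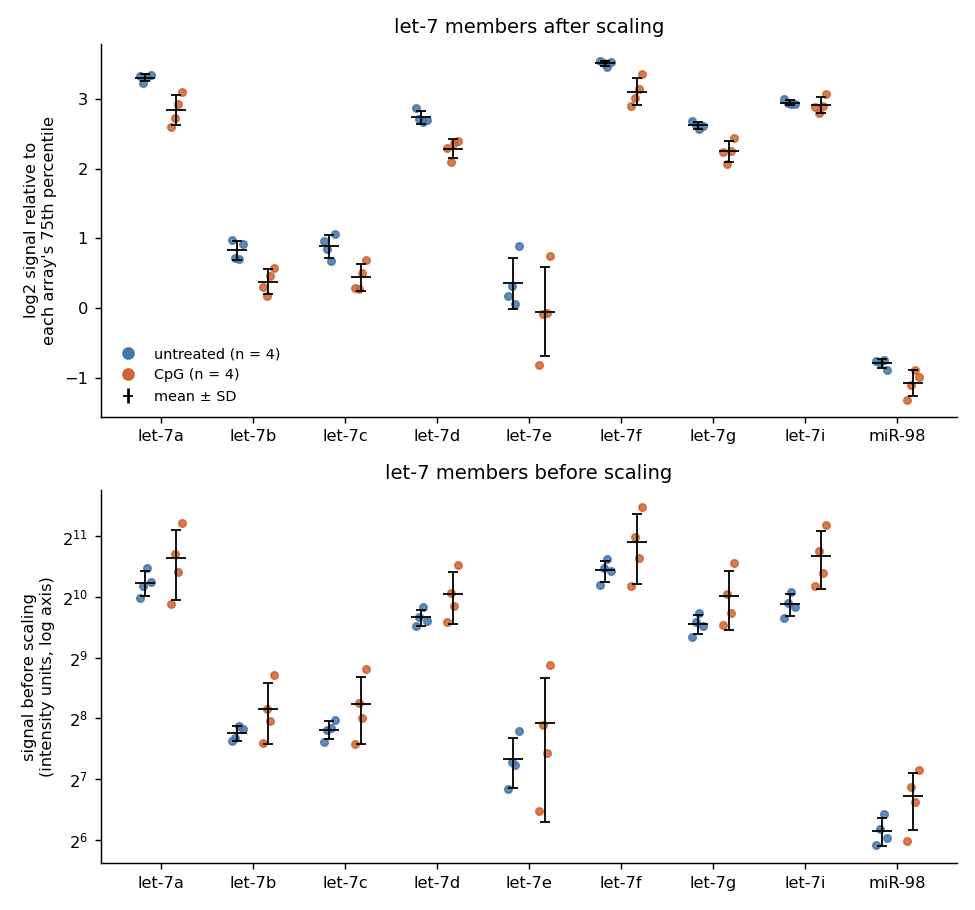
Each member on each of the 8 arrays, as scaled log2 signal (0 is the array's 75th percentile) and as unscaled intensity on a log axis, with the points of a group drawn from replicate 1 to 4 and the bars giving mean and SD (n = 4). On the scaled axis 5 members have no overlap between groups and all 9 means are lower with CpG, whereas without scaling all 9 means are higher.

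let-7d, encoded on chromosome 13 beside let-7a and let-7f, had scaled log2 values of 2.87, 2.71, 2.67 and 2.70 in the untreated samples and 2.29, 2.09, 2.36 and 2.40 with CpG. Every CpG sample was below every untreated one. The difference was -0.45 (SE 0.132, 95% interval -0.75 to -0.16, limma adjusted p = 0.0497), a ratio of 0.731. Relative to the median shift of all tested microRNAs it was -0.26. The call was narrow: leaving out 1 sample at a time, it held in 1 of 8 fits, the one without CpG replicate 1, and the adjusted p ran from 0.0465 to 0.123. Over all alternatives run it passed in 8 of 34, some of which nearly repeat the main fit. Without scaling, let-7d was higher with CpG by 0.35 and did not pass (limma adjusted p = 0.211).

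let-7a, the base of the sequence comparison above, had scaled log2 values of 3.33, 3.23, 3.32 and 3.34 untreated and 2.60, 2.73, 2.93 and 3.098 with CpG. The CpG samples were all lower than the untreated ones and more spread. The difference of -0.47 (SE 0.145, 95% interval -0.79 to -0.14) missed the threshold (limma adjusted p = 0.0566). let-7f, its neighbour on chromosome 13, had 3.54, 3.52, 3.46 and 3.52 untreated and 2.89, 3.02, 3.14 and 3.35 with CpG. The groups did not overlap there either, and the difference was -0.41 (SE 0.139, limma adjusted p = 0.0764). Both passed when CpG replicate 4 was left out (limma adjusted p = 0.0413 for let-7a and 0.04997 for let-7f), while let-7d then did not (0.0542). Without scaling both were higher with CpG, by 0.33 and 0.39.

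let-7g, from the Wdr82 locus, had scaled log2 values of 2.69, 2.63, 2.56 and 2.62 untreated and 2.24, 2.07, 2.25 and 2.43 with CpG. Its groups did not overlap, and the difference was -0.37 (SE 0.131, limma adjusted p = 0.0764). For let-7b the values were 0.97, 0.72, 0.71 and 0.92 untreated and 0.30, 0.18, 0.47 and 0.58 with CpG, again with no overlap (difference -0.45, SE 0.145, limma adjusted p = 0.0656). let-7c, its neighbour on chromosome 15, had 0.96, 0.85, 0.68 and 1.06 untreated and 0.29, 0.28, 0.51 and 0.69 with CpG. Here untreated replicate 3 and CpG replicate 4 crossed, and the difference was -0.44 (SE 0.153, limma adjusted p = 0.0764). Without scaling the same members were higher with CpG, by 0.42 for let-7g, 0.35 for let-7b and 0.36 for let-7c, and none passed.

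miR-98, the member with a name of its own, lay below the 75th percentile on every array, at -0.75, -0.79, -0.74 and -0.88 untreated and -1.31, -1.10, -0.88 and -0.99 with CpG. Untreated replicate 4 and CpG replicate 3 overlapped. The difference of -0.28 (SE 0.138, 95% interval -0.59 to 0.03) did not pass (limma adjusted p = 0.155), and without scaling it was 0.52 (limma adjusted p = 0.122).

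let-7i was the member with the smallest scaled difference. Its scaled log2 values were 2.99, 2.94, 2.92 and 2.93 untreated and 2.88, 2.79, 2.90 and 3.06 with CpG. The groups overlapped, and the difference was -0.04 (SE 0.124, 95% interval -0.31 to 0.24, limma adjusted p = 0.822). Its sign turned under several other scalings, with values from -0.09 to 0.76 over all alternatives run. In unscaled intensity let-7i read 804, 958, 1089 and 916 untreated and 1157, 1743, 1345 and 2342 with CpG, with no overlap. There it rose, by 0.76 on the log2 scale (SE 0.250, limma adjusted p = 0.0364), a ratio of 1.70, and was the 1 member of 9 to do so where 41.5% of tested microRNAs rose. Its groups were also the only ones among the members that did not overlap without scaling, where 39.6% of tested microRNAs were higher with no overlap.

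**Figure D2:**
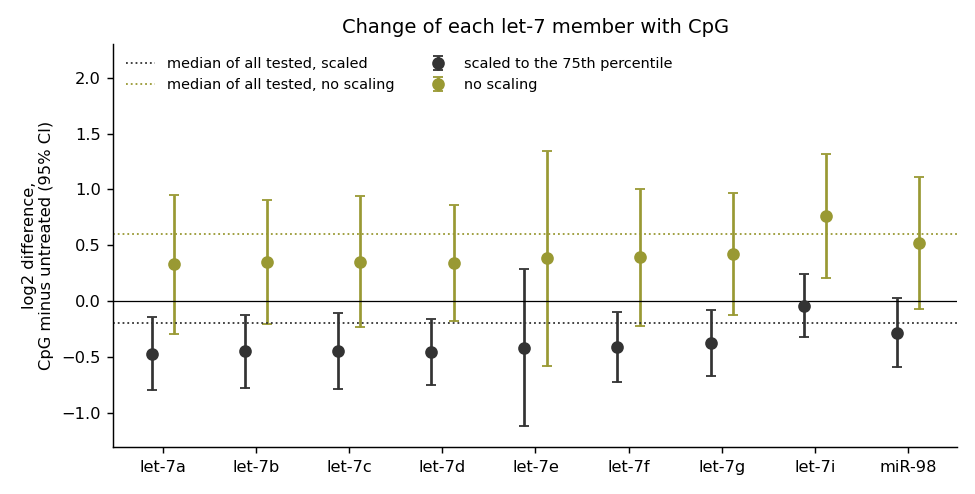
Fitted log2 difference, CpG minus untreated, of each member with its 95% interval, after scaling to the 75th percentile and without scaling, beside the median of all 212 tested microRNAs (-0.19 scaled, 0.60 unscaled). After scaling the intervals of let-7a, let-7b, let-7c, let-7d, let-7f and let-7g lie below 0, while without scaling all 9 differences lie above 0 and the interval of let-7i excludes 0.

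Without scaling, the intensity of let-7a was 1015, 1169, 1435 and 1217 untreated and 951, 1667, 1371 and 2402 with CpG. CpG replicate 1 was below all untreated samples and CpG replicate 4 was highest. The 75th percentile was also highest on CpG replicate 4, but on CpG replicate 1 it was above every untreated array. Averaged over the 9 members, unscaled log2 signal was 8.75 ± 0.16 (SD, n = 4) untreated and 9.18 ± 0.54 with CpG, a difference of 0.43 that was within the spread (exact two-sided permutation test, p = 0.171). The unscaled median difference was 0.39 over the members and 0.60 over all tested microRNAs. Dividing each array by 1 factor shifts all microRNAs nearly alike. The lower median of the members without scaling is therefore no separate result from the one after scaling.

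A comparison within the family does not depend on a scaling that divides each array by 1 factor. The mean of the 9 scaled log2 values was 1.86, 1.79, 1.74 and 1.90 untreated and 1.26, 1.33, 1.51 and 1.71 with CpG. Against that mean let-7i stood at 1.13, 1.15, 1.18 and 1.03 untreated and at 1.62, 1.46, 1.39 and 1.35 with CpG. Every CpG sample was higher than every untreated one, with a difference of 0.33. Against the same mean, the median difference of all 212 tested microRNAs was 0.18. With the family mean as the scale for all 212 microRNAs, a fit added after the values were seen, the 95% interval was 0.07 to 0.59 and the adjusted p of limma was 0.0797, so the relative difference of let-7i did not pass. In that fit 0 of 9 members passed in either direction, where 13.2% of tested microRNAs were called higher and 0.943% lower, and 1 member (let-7i) was higher at an unadjusted p under 0.05, as were 61 of the 212 tested. The difference of let-7i against the family mean lay between 0.26 and 0.41 in all alternatives run. Alternatives that only divide each array by 1 factor, or change the filter, floor or eBayes options, could not move it. Nor could the slide row and replicate blocks, which hold both groups equally. Leaving out saturated spots could not either, since no member had any. Only the others could.

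The other members differed less against the family mean. let-7a was at 1.47, 1.44, 1.58 and 1.44 untreated and 1.34, 1.40, 1.42 and 1.39 with CpG, a difference of -0.098 with no overlap. When let-7e and let-7i were left out of the mean, the let-7a difference became -0.056 and its groups overlapped, whereas let-7i differed by 0.37 with no overlap. For the 7 members other than let-7a and let-7i, differences from the 9-member mean ran from -0.083 to 0.089 and all groups overlapped. Groups failed to overlap against the family mean for 2 of 9 members, where the share over all tested microRNAs was 16.0%, of which 13.2% higher and 2.83% lower.

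**Figure D3:**
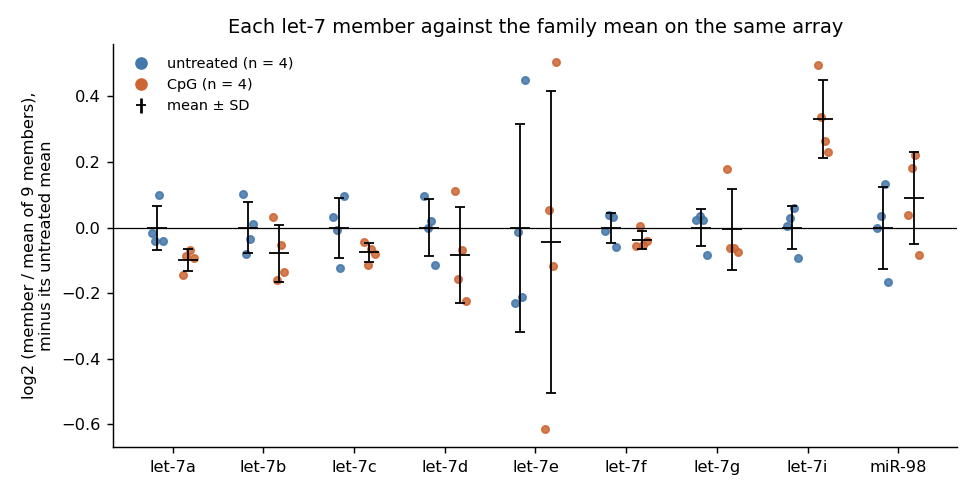
Each member's log2 value minus the mean of the 9 members on the same array (independent of scaling by 1 factor per array), drawn relative to that member's untreated mean (vertical axis, log2 units), with points for single arrays and bars for mean and SD (n = 4). The 4 CpG points of let-7i lie above its 4 untreated points with a mean of 0.33, those of let-7a lie slightly below, and the groups of the other 7 members overlap.

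Among the 36 pairs of members, the log2 ratio did not overlap between groups in 6, and all 6 included let-7i. The share among all 22366 pairs of tested microRNAs was 19.0%, so such ratios were no more common within the family. let-7i paired without overlap with let-7a, let-7b, let-7c, let-7d, let-7f and let-7g, and with overlap with let-7e and miR-98. The ratio of let-7g to let-7i, which differ from each other at 2 bases and share G12U and U18C, moved from -0.32 to -0.66 on the log2 scale, a change of -0.34. Within groups the same pair moved closely together, with r = 0.981 for deviations from the group means (8 arrays).

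let-7e was the member most variable between arrays. Its scaled log2 values were 0.17, 0.32, 0.06 and 0.88 untreated and -0.81, -0.08, -0.07 and 0.75 with CpG. Untreated replicate 4 and CpG replicate 4 were high, CpG replicate 1 was low, and the groups overlapped. The difference of -0.41 had an SE of 0.313 and a 95% interval from -1.11 to 0.29 (limma adjusted p = 0.320), wide enough to hold both no change and a fall larger than that of any other member. Both let-7e probes gave a like difference, -0.36 and -0.43.

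The microRNAs made beside let-7e varied with it. Over the 8 arrays the correlation of let-7e was 0.934 with miR-99b and 0.937 with miR-125a-5p, which lie in the same gene span, against 0.677 with the mean of the other let-7 members. With miR-125b-5p, which is made elsewhere, it was 0.530. That microRNA was far dimmer (untreated scaled mean -4.48) than miR-99b (-1.66) and miR-125a-5p (-1.07), and its correlation with any member was at most 0.591. The part of low signal in this was not tested. Other members also correlated with miR-99b and miR-125a-5p, let-7c at 0.867 and 0.817, let-7f at 0.779 and 0.773 and let-7a at 0.749 and 0.725, and the rest at 0.475 to 0.755 and 0.528 to 0.696. These are descriptions over 8 arrays that share their scaling and groups, and the comparison was picked after the values were seen. let-7e spanned 1.70 log2 units over the arrays, while its ratio to miR-99b spanned 0.68 and its ratio to miR-125a-5p 0.57. Of the 5 microRNAs listed as made beside let-7 members, 3 were detected and none passed at adjusted p under 0.05, nor at an unadjusted p under 0.05: miR-99b differed by -0.37 (limma adjusted p = 0.242), miR-125a-5p by -0.30 (0.336) and miR-125b-5p by -0.27 (0.332). miR-99a and miR-100 were not detected on any array. Without scaling the 3 were higher with CpG, by 0.43, 0.49 and 0.53.

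**Figure D4:**
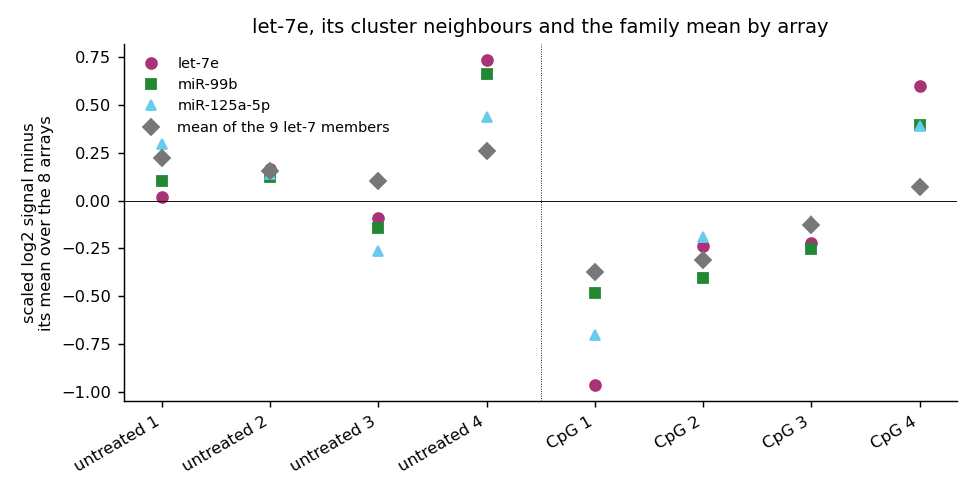
Scaled log2 signal on each of the 8 arrays, minus its mean over the arrays, for let-7e (circles), miR-99b (squares), miR-125a-5p (triangles) and the mean of the 9 let-7 members (diamonds). let-7e, miR-99b and miR-125a-5p are high together on untreated replicate 4 and CpG replicate 4 and low together on CpG replicate 1, over a wider range than the family mean; all values are on the 75th percentile scale.

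Likeness of sequence and likeness of signal could be set side by side for the 36 pairs. let-7a and let-7f, 1 base apart (G12A), had the steadiest ratio, with an SD of 0.057 log2 units over the 8 arrays and r = 0.987. let-7b and let-7c, also 1 base apart, had an SD of 0.071 and r = 0.970. let-7a and let-7e are 1 base apart too (U9G), yet their ratio had an SD of 0.373 and r = 0.733. In the other direction, let-7d and let-7g differ at 4 bases, 3 of them within the longest probe target, and had an SD of 0.066 with r = 0.977. let-7d and let-7i, the pair with 6 differing bases (5 within the longest target), had an SD of 0.230 and r = 0.560. Each SD and r above runs over both groups, so it includes the difference between groups. For deviations from the group means, r was 0.951 for let-7a with let-7f and 0.906 for let-7b with let-7c. By that measure it was 0.811 for let-7a with let-7e, 0.886 for let-7d with let-7g and 0.835 for let-7d with let-7i.

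Grouped by differing bases, the median SD of the ratio was 0.090 for the 4 pairs at 1 base and 0.135 for the 10 pairs at 2. It was 0.179 for the 11 pairs at 3 and 0.165 for the 9 pairs at 4. The 1 pair at 5 bases, let-7e with let-7i, had the highest SD of all, 0.489. The 1 pair at 6, let-7d with let-7i, had 0.230. Across all 36 pairs the correlation of differing bases with the SD of the ratio was 0.17. These counts are over the whole mature sequence and include U1A of let-7d, which lies outside both let-7d targets. The 21 pairs without let-7e or let-7i stayed between 0.057 and 0.192. Pairs share members, arrays and scaling, and the SDs include any difference between groups. How far a probe captures a neighbouring member was not tested. Probe sequences were not used here.

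**Figure D5:**
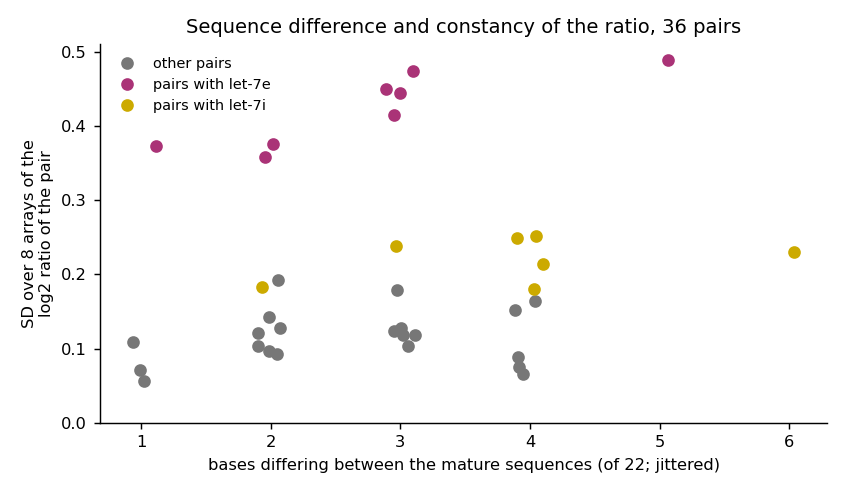
For each of the 36 pairs of members, the number of bases by which the mature sequences differ (horizontal axis, jittered) against the SD of their log2 ratio over the 8 arrays (vertical axis), with pairs that include let-7e or let-7i coloured and let-7e with let-7i drawn as a let-7e pair. let-7a with let-7f (1 base) has an SD of 0.057, let-7a with let-7e (1 base) 0.373 and let-7d with let-7g (4 bases) 0.066.

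The 2 probes of a member were compared as a further reading of the same RNA. Their scaled differences had the same sign for 8 of 9 members and lay 0.039 to 0.140 apart. The exception was let-7i, whose probes gave 0.02 and -0.06, with groups overlapping for both. For let-7d the probes gave -0.41 and -0.46, and for let-7a -0.44 and -0.48, with no overlap in any of these. For let-7f, the probe with the shorter target gave -0.29 with overlap and the longer -0.42 without.

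The opposite strands of the let-7 hairpins, called passenger arms and marked with a star, were read by probes of their own. Of 7 on the array, 3 passed the detection filter and none was called at adjusted p under 0.05 after scaling, nor at an unadjusted p under 0.05. let-7d* read -3.92, -4.22, -3.52 and -4.63 untreated and -4.59, -3.37, -3.37 and -3.23 with CpG, with CpG replicate 1 among the untreated values. Its difference was 0.43 (SE 0.333, limma adjusted p = 0.322), where let-7d itself was at -0.45. let-7b* differed by 0.35 (limma adjusted p = 0.396) and let-7g*, detected on 2 untreated and 3 CpG arrays, by 0.14 (0.784). Without scaling let-7b* and let-7d* rose, by 1.15 and 1.23 (limma adjusted p = 0.0437 and 0.0496), where 41.5% of all tested microRNAs rose and their median was 0.60. let-7c-1*, let-7c-2*, let-7f* and let-7i* were not detected on any array.

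A microRNA with a seed close to that of let-7 gives a comparison outside the family. miR-202-3p is shown with its bases 2 to 8 in capitals.
miR-202-3p: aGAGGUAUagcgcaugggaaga
Its first 8 bases differ from let-7a by U1A and G8U, and its whole sequence at 14 positions. Its scaled log2 values were -1.61, -2.07, -2.16 and -1.94 untreated and -2.33, -2.63, -2.46 and -2.45 with CpG, with no overlap. The difference was -0.53 (SE 0.157) and missed the threshold (limma adjusted p = 0.0528), and without scaling it was 0.27. miR-196a and miR-196b, the other near seeds listed, were not detected.

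Among the 203 tested microRNAs outside the family, those whose scaled values followed the mean of the 9 members most closely over the 8 arrays were miR-26b (r = 0.969), miR-20b (0.968), miR-350 (0.948), miR-20a (0.946) and miR-92a (0.944). Those least like it were miR-874 (-0.827), miR-877 (-0.874) and miR-29b* (-0.897). The most alike differed between groups by -0.49 to -0.32, whereas the least alike were called higher with CpG, by 0.92, 2.02 and 0.84. All correlations in this paragraph run over both groups, so they include the difference between groups. Within the family, the correlation of a member with the mean of the other 8 ran from 0.637 for let-7i and 0.677 for let-7e to 0.985 for let-7f.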

How the data were processed

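Agilent 1-colour mouse microRNA arrays (8 on 1 slide) were read out by Agilent's Feature Extraction software, version 9.5.3.1 by the file headers, whose array annotation uses mm9. Per the file headers, the deposited intensity values are processed spot signals and, in a second file per array, a total gene signal. The table deposited by the authors also holds intensity: all of its 2080 values equal that total signal within 0.1% or sit at 0.01, so it is not scaled between arrays. limma is named in the submitters' processing notes, with no role given.

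Processed signals were averaged over spots and then over probes, scaled within each array to the 75th percentile of the 177 microRNAs detected on all 8 arrays, floored at 0.0107 and converted to log2. microRNAs detected on at least 3 of 4 arrays of a group were tested (212 of 567) by two-sided eBayes tests of limma (version 3.58.1, run in R 4.3.3), adjusted over all 212 by Benjamini-Hochberg at a threshold of 0.05. Ratios between members have no test beyond the fit named with them. Probe targets were taken to end at the 3′ end of the mature sequences. Distances between array targets equalled RefSeq distances for 8 of 8 pairs. Such distances cannot show an offset shared by the targets, and no pair included let-7e or miR-98. The fit was also run on simulated data. Their noise was independent for each microRNA, with no brightness shift between arrays, so the choice of scaling was not tested there. Figures were drawn with matplotlib 3.10.9 in Python 3.11.15.

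The members, the gene lists and the rules were chosen with earlier results of these data known. Named were all 9 members, detected microRNAs of the neighbour, passenger arm and near-seed lists, the 5 tested microRNAs most like the family mean and the 3 least like it, and cell type markers. Alternatives covered scaling, background, summarising of probes, filter, floor, eBayes options, slide row, a replicate block and left-out samples. Samples were grouped by their titles.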

Additional observations from a re-analysis of the deposited data

Results flagged for a closer look

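In 3 measurements 1 sample lay far from the other samples of its group by Dixon's gap test, among 54 groups of 4 checked, where chance gives about 1 in 20. let-7g minus the mean of the 9 members was 0.72 in untreated replicate 4, against a mean of 0.83 in the other 3 untreated samples. The same measure was 0.98 in CpG replicate 1, against 0.73 in the other 3 CpG samples. The scaled log2 signal of let-7d* was -4.59 in CpG replicate 1, against -3.32 in the other 3.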

How the results depend on the processing

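Scaling set the direction of the members. Without scaling, 88 microRNAs were called higher and 0 lower (limma; 2 lower at an unadjusted p under 0.05), and the members' median was 0.39, with let-7a 0.33, let-7b 0.35, let-7c 0.36, let-7d 0.35, let-7e 0.39, let-7f 0.39, let-7g 0.42, let-7i 0.76 and miR-98 0.52. The authors' deposited table, also unscaled, gave 61 higher and 0 lower (2 unadjusted), a median of 0.39 and, in the same order, 0.33, 0.35, 0.35, 0.35, 0.39, 0.39, 0.42, 0.76 and 0.52. Scaling on the hur control features gave 68 higher and 2 lower, a median of 0.14 and member values of 0.089, 0.11, 0.11, 0.10, 0.14, 0.15, 0.18, 0.52 (let-7i, limma adjusted p = 0.0169) and 0.28. Scaling on the 9 members, chosen after seeing the data, gave 28 higher and 2 lower, a median of -0.043, let-7i 0.33 and miR-98 0.089; the mean of 7 members was also chosen after seeing the data.

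let-7i also turned above 0 with the percentile over all mouse microRNAs (0.022), quantile (0.21), median-of-ratios (0.21) and cyclic loess (0.18) scaling, normexp background with quantile (0.20), the brightest probe (0.088), within slide row 1 (0.013) and without CpG replicate 2 (0.0027, the highest when 1 sample was left out, the lowest being -0.088 without CpG replicate 4). The members' median was -0.14 with quantile and -0.17 with median-of-ratios scaling, beside -0.105 and 0.051 over all tested microRNAs. It was -0.25 with cyclic loess, -0.12 with normexp and -0.28 with the brightest probe, beside -0.15, -0.021 and -0.049. Members and all tested microRNAs thus lay closer together with quantile, cyclic loess and normexp than in the main fit (-0.41 and -0.19). With the brightest probe they stayed about as far apart. Median-of-ratios scaling divides each array by 1 factor, so it moved both medians nearly alike.

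Against 16 higher and 14 lower calls, the higher calls numbered 9 with quantile scaling, 9 with the percentile without let-7, 7 with normexp, 2 with no filter, 3 without CpG replicates 2 and 4, and 0 within slide row 1 (8 unadjusted). The lower calls numbered 7 with the percentile over all mouse microRNAs, 7 with median scaling, 5 with median-of-ratios, 9 with cyclic loess, 6 without let-7 in the percentile, 5 with normexp, 42 with the median over spots, 4 with the brightest probe, 1 with no filter, 34 with a floor 2 times higher, 29 with eBayes trend, 0 within slide row 1 (7 unadjusted), 5 within row 2 and 1 without CpG replicates 2 and 4. Leaving out 1 sample at a time gave 3 to 39 higher calls, 2 to 29 lower calls and a members' median of -0.49 to -0.37; the most calls came without CpG replicate 1.

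let-7d passed in 8 of 34 alternatives, let-7a in 5, let-7f in 4, let-7b, let-7c and let-7g in 3 each. let-7e and miR-98 passed in 0 and let-7i in 2 (higher). The 8 for let-7d include the deposited total gene signal and saturated spots left out. Both nearly repeat the main fit, with the same 16 higher and 14 lower calls. In 3 alternatives (the median over spots, a floor 2 times higher and eBayes trend) 6 members passed as lower. There 42, 34 and 29 of the 212 tested microRNAs were called lower, against 14 in the main fit. A replicate block gave 16 higher and 22 lower calls and no member (let-7d adjusted p = 0.0564, limma); replicate numbers were not shown to pair samples, since the deviations of same-numbered samples correlated at 0.277, -0.259, 0.250 and 0.0962. Signals were well above background for all members on all arrays.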
